A study of Mus musculus with 16 samples.

Results

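The H3K4me2 peaks shared by mTEC-I and mTEC-IV, 2 populations of medullary thymic epithelial cells (mTEC) of the mouse, are those that stand high in both and low in mTEC-III and mTEC-II. Of 29470 merged peaks outside the mitochondrial genome, 199 (0.675%) were chosen. In each, the smaller of the mTEC-IV and mTEC-I means was at least 40 tags per 10000000 tags of the library, and at least 1.5 times the larger of the mTEC-III and mTEC-II means. The deposited H3K4me2 values themselves chose these peaks, so their contrast between the 2 pairs of populations is given as a description, with no test. The study profiled the enhancers of 4 sorted mTEC populations of C57BL/6 mice, with 2 H3K4me2 libraries each and no treatment, age or sex stated in the labels. All cells were CD45-negative and Epcam-positive. The mTEC-IV gate took MHC class II low, Itgb4-negative, L1cam-positive cells. The mTEC-I gate took MHC class II low, Itgb4-positive cells, mTEC-III was Ly6D-positive and mTEC-II was MHC class II high. Whether the 2 libraries of a population came from different mice is not stated in the labels, so the p-values speak only of how far these samples differ, a spread that may be technical. Both MHC class II low gates are set here against the MHC class II high gate and the Ly6D gate.

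Dimethylation of histone H3 at lysine 4 marks active and poised promoters and enhancers, and its pattern away from start sites differs between cell types. Medullary thymic epithelial cells present tissue antigens to T cells that develop in the thymus. As background, mTEC-I is known for junctional cells that make the chemokine CCL21, mTEC-IV for tuft-like cells, mTEC-II for cells of the Aire stage and mTEC-III for cornified, post-Aire cells. A bulk library cannot tell a mark carried by fewer cells from a weaker mark per cell.

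The defining markers of mTEC-IV and mTEC-I followed the labels. The summed H3K4me2 over the peaks of 5 genes of the tuft-like cell (L1cam, Pou2f3, Trpm5, Avil, Dclk1) was 3704 and 3859 tags per 10000000 in mTEC-IV, 951 and 967 in mTEC-I, 1067 and 1039 in mTEC-III, with 890 and 951 in mTEC-II. The sum over the mTEC-I markers Itgb4, Krt5, Krt14 and Pdpn was 412 and 406 in mTEC-IV, 1343 and 1301 in mTEC-I, 640 and 677 in mTEC-III, with 745 and 701 in mTEC-II. No peak of either set was among the shared ones. Ccl21a, also a marker of mTEC-I, had no peak. The mTEC-II markers followed the labels in part. Ciita and Cd40 were highest in mTEC-II, and Aire had no peak. H2-Aa was highest in mTEC-I, with 457 and 432 against 406 and 398 in mTEC-II. The Cd80 sum was highest in mTEC-IV, with 515 and 539 against 485 and 489 in mTEC-II. Of the 3 Cd80 peaks summed, 2 were shared peaks, chosen for a level in mTEC-IV above that in mTEC-II. The other Cd80 peak, over the start site and given below, was highest in mTEC-II. Ptprc, the gene of the CD45 antigen that the sorts excluded, carried 269 and 265 in mTEC-IV, 34.1 and 35.3 in mTEC-I, 34.1 and 30.03 in mTEC-III, with 38.9 and 48.9 in mTEC-II. Over 8 of 15 genes of antigen-presenting blood cells with a peak, the sum was 410 and 446 in mTEC-IV, 236 and 308 in mTEC-I, 355 and 398 in mTEC-III, with 372 and 362 in mTEC-II. Of 16 thymocyte genes 5 had a peak (Cd2, Themis, Tcf7, Bcl11b and Cd28), with a sum of 1367 and 1434 in mTEC-IV, 1399 and 1093 in mTEC-I, 1199 and 1302 in mTEC-III, with 1528 and 1554 in mTEC-II. Cd3e, Cd3d, Cd3g, Cd4 and Cd8a had none. Over 14 of 21 fibroblast genes with a peak, the sum was 1554 and 1652 in mTEC-IV, 2132 and 2391 in mTEC-I, 1054 and 1262 in mTEC-III, with 1632 and 1560 in mTEC-II. The part of such cells in the shared peaks was not tested.

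The libraries held 1702103.5 to 15412132.5 tags. The least deep library was replicate 2 of mTEC-I. A single tag there equals 5.88 tags per 10000000, and the level of 40 stands for 6.81 tags. In that library 60 of the 199 peaks rested on fewer than 10 tags. Replicates of a population differed on the log2 scale with an SD over the shared peaks of 0.25 in mTEC-IV, 0.51 in mTEC-I, 0.42 in mTEC-III and 0.27 in mTEC-II. Over all tested peaks the same SD was 0.33 in mTEC-IV, 0.84 in mTEC-I, 0.38 in mTEC-III and 0.26 in mTEC-II. The limma fit described below takes the spread as alike in all populations. Chosen without mTEC-I replicate 2, the rule gave 203 peaks, of which 136 were among the 199.

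Promoters of genes that interferons induce were among those covered by the shared peaks, and 5 of them are printed here because the letters of the interferon-stimulated response element (ISRE) can be read in them. The ISRE is a site that interferon regulatory factors bind. The sequences are the 250 bases before the start site from RefSeq, build GRCm38.p6, all on the minus strand and written 5′ to 3′, while peak positions elsewhere in the text are mm9. Rsad2 lies at chr12:26456453-26456702, Slfn8 at chr11:83020811-83021060, Tgtp1 at chr11:48992247-48992496, Tgtp2 at chr11:49064213-49064462 and Lgals9 at chr11:78984925-78985174. Capitals mark matches to GAAANNGAA, searched on both strands, so that a match on the other strand is printed as its reverse complement. Slfn8 has another start site in the RefSeq table, which holds the same match.
Rsad2: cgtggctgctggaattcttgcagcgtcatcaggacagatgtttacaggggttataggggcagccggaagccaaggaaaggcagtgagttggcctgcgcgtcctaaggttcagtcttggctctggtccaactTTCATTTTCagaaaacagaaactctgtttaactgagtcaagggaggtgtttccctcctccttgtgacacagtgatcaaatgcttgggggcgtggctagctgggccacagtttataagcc
Slfn8: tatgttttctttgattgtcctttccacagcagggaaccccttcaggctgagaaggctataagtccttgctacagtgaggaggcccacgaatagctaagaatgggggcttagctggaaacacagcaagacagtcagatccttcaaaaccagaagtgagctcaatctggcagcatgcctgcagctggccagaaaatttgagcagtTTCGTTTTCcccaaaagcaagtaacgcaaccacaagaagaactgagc
Tgtp1: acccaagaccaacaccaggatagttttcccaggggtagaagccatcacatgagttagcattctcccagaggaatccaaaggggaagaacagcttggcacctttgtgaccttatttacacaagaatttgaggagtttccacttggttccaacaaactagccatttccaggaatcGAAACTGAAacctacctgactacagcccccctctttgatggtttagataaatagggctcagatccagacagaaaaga
Tgtp2: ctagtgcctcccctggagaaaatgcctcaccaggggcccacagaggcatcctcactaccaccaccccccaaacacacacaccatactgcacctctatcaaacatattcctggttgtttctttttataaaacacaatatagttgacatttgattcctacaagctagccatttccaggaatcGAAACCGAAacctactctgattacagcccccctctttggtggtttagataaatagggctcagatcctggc
Lgals9: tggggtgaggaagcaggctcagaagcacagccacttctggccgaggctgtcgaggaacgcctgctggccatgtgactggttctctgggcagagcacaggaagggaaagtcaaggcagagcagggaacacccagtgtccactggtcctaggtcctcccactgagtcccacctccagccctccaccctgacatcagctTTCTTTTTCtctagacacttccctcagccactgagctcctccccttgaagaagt
The match began 119 bases before the start site in Rsad2, 47 in Slfn8, 77 in Tgtp1, 70 in Tgtp2 and 54 in Lgals9. A second match in Lgals9, and the only one in Samd9l, lay 16 and 38 bases after the start sites and are not printed. The STAT letters TTCCNGGAA also occur in the Tgtp1 and Tgtp2 promoters, just before the ISRE letters.

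Of the 199 shared peaks 49 covered a start site, and 39 of their 49 genes had a promoter sequence of 300 bases (250 before to 50 after the start site) in the RefSeq table. The ISRE letters were found in 11 of the 39 (28.2%). They were found in 808 of 9613 genes with any peak over the start site (8.41%) and in 2638 of all 27025 genes of the table (9.76%). Besides the 6 genes above, they were found at Fes, Nav1, Olfml1, Ppargc1a and Tcf7l2. Without the 6 interferon-linked genes, a group put together after their values were seen, 5 of 33 genes (15.2%) had the letters. Of the other 13 motifs searched, the STAT letters were in 2 of 39 promoters (5.13%) against 1.54% of genes with a peak at the start site. These 2 were Tgtp1 and Tgtp2, whose promoters share the bases around the letters, so the matches are not independent. The same pair counts as 2 of the 11 genes with the ISRE letters. The AP-1 letters TGANTCA were in 5 (12.8%) against 6.29%, and the octamer ATGCAAAT in 3 (7.69%) against 1.61%. The SP/KLF letters GGGCGGGG were in 12 (30.8%) against 38.1%. The ETS letters CCGGAAGT were in none of the 39 promoters, against 7.97%. A match is a description of the letters and not a bound site.

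**Figure D1:**
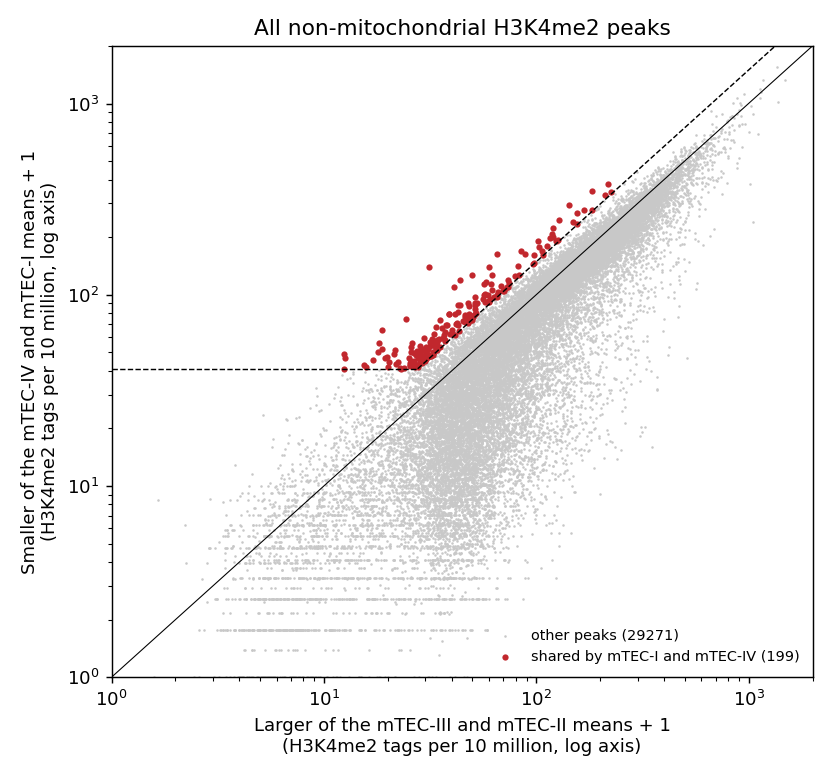
Each point is a merged H3K4me2 peak, with the larger of the mTEC-III and mTEC-II means on the x axis and the smaller of the mTEC-IV and mTEC-I means on the y axis (tags per 10000000 + 1, log axes). The 199 shared peaks (red) lie at or above the dashed limits of the rule, and most peaks lie below the solid line of equal levels.

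The shared pattern was modest at most of these peaks. The ratio of the smaller mTEC-IV or mTEC-I mean to the larger mTEC-III or mTEC-II mean ran from 1.501 to 4.58, with a median of 1.69. It was 2 or more at 39 peaks and 3 or more at 7. The smaller mean ran from 40.1 to 376, with a median of 68.2. The larger mTEC-III or mTEC-II mean had a median of 37.7, so the mark was lower there but present at most of the peaks. At 191 of the 199 (96.0%) all 4 libraries of mTEC-IV and mTEC-I stood above all 4 of mTEC-III and mTEC-II, against 6.23% of all peaks, a separation that the rule itself favours. The same rule with the populations exchanged gave 466 peaks for mTEC-I with mTEC-II, 175 for mTEC-I with mTEC-III, 381 for mTEC-IV with mTEC-II, 355 for mTEC-IV with mTEC-III and 375 for mTEC-III with mTEC-II.

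**Figure D2:**
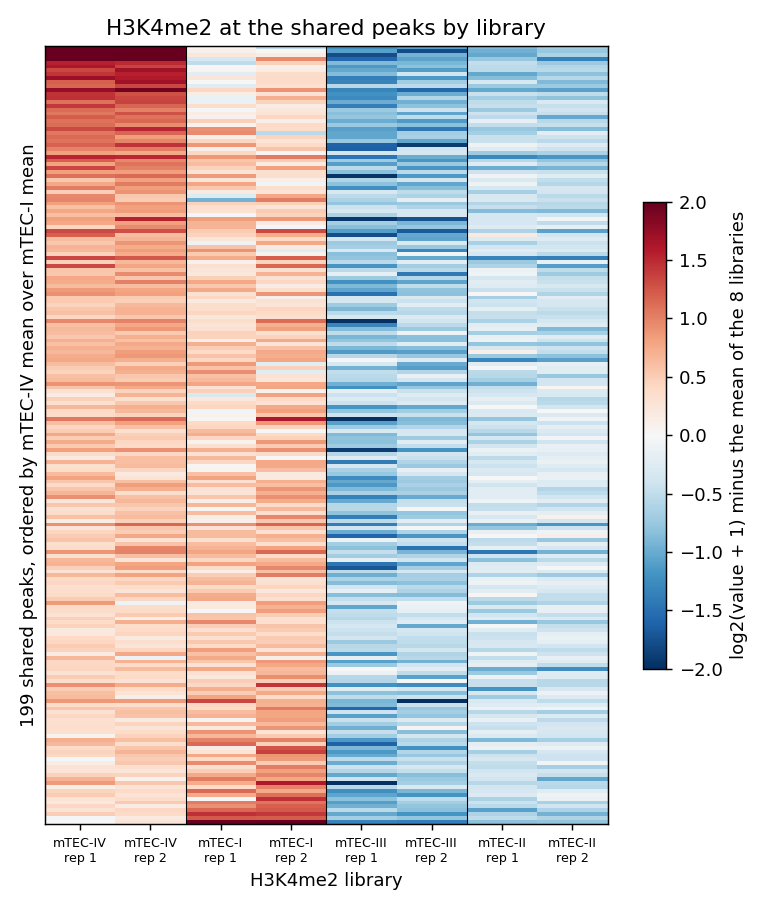
H3K4me2 at the 199 shared peaks (rows, ordered by the mTEC-IV mean over the mTEC-I mean) in the 8 libraries (columns), as log2(value + 1) minus the mean of the 8 libraries. The mTEC-IV and mTEC-I columns are red at nearly all peaks, a few top rows are far higher in mTEC-IV and a few bottom rows far higher in mTEC-I.

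Since the rule used both replicates, it was also applied to 1 replicate of each population and read in the other. Chosen on replicate 1, 230 peaks passed. In replicate 2, 175 of them (76.1%) had both mTEC-IV and mTEC-I above mTEC-III and mTEC-II, against 15.9% of all peaks. The step of 1.5 times was reached again by 80 (34.8%), against 2.10% of all peaks. Chosen on replicate 2, 281 peaks passed, of which 219 (77.9%) kept the order in replicate 1, against 19.3% of all peaks. There 92 (32.7%) reached 1.5 times, against 1.59%. The median ratio in the replicate that was not used was 1.31 and 1.30, smaller than the 1.69 of the 199 peaks.

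Genes of the interferon and antiviral response gave some of the clearest shared peaks. Slfn8, a Schlafen gene that interferon induces in the mouse, had 2 of them, and its peak in intron 3 (chr11:82826317-82830687) had the largest ratio of all, 4.58. It held 206 and 204 tags per 10000000 in mTEC-IV, 131 and 147 in mTEC-I, 25.2 and 35.3 in mTEC-III, with 28.6 and 31.1 in mTEC-II. The mTEC-III and mTEC-II libraries overlapped, and all lay below those of mTEC-IV and mTEC-I, a separation that the rule itself favours. The mTEC-IV libraries stood above those of mTEC-I. The means were 205 ± 1.75 in mTEC-IV and 139 ± 11.4 in mTEC-I (SD, n = 2 each). They were 30.3 ± 7.14 in mTEC-III and 29.8 ± 1.80 in mTEC-II. The peak over the Slfn8 start site (chr11:82832507-82835233) held 120 and 131 in mTEC-IV, 218 and 232 in mTEC-I, 67.5 and 54.8 in mTEC-III, with 45.7 and 63.7 in mTEC-II. The 2 peaks of Slfn8 thus leaned to opposite sides within the high pair. By limma the intron peak was higher in mTEC-IV than in mTEC-I by 0.56 ± 0.20 (log2, SE), with an adjusted p of 0.0428, and the start-site peak was lower by -0.83 ± 0.19 with an adjusted p of 0.00362. The call at the intron peak was lost without any 1 of 5 libraries, with adjusted p from 0.0628 to 0.17, and in 8 of 19 alternative settings in all.

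Tgtp1 and Tgtp2 encode near-identical GTPases induced by interferon-gamma and lie 71.2 kb apart. The peak over the Tgtp1 start site (chr11:48803047-48807153) held 142 and 134 in mTEC-IV, 280 and 270 in mTEC-I, 49.2 and 43.6 in mTEC-III, with 65.5 and 52.2 in mTEC-II. The peak at Tgtp2 (chr11:48874299-48878243) held 169 and 210 in mTEC-IV, 298 and 308 in mTEC-I, 67.5 and 90.1 in mTEC-III, with 108 and 92.9 in mTEC-II. Both genes were highest in mTEC-I, middle in mTEC-IV and lowest in the other populations, with no overlap between these 3 levels. The gap between the middle and the lowest level is one that the rule itself favours. They were lower in mTEC-IV than in mTEC-I by limma, Tgtp1 by -0.99 ± 0.16 (adjusted p = 0.00049) and Tgtp2 by -0.68 ± 0.17 (adjusted p = 0.00604). The Tgtp2 call was lost without mTEC-IV replicate 1 (-0.53, adjusted p = 0.0859). How the authors counted reads that fit several such copies, or several Schlafen genes, is not stated in the labels, so the split between copies is uncertain.

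Samd9l, an antiviral gene that interferon induces, had a shared peak over its start site and another 54.5 kb away in intergenic DNA (chr6:3293855-3296343). The distal peak held 123 and 113 in mTEC-IV, 148 and 150 in mTEC-I, 32.8 and 47.7 in mTEC-III, with 38.9 and 46.3 in mTEC-II. The start-site peak held 164 and 161 in mTEC-IV, 215 and 144 in mTEC-I, 82.0 and 92.4 in mTEC-III, with 79.8 and 83.7 in mTEC-II. The distal peak had the larger ratio, 2.76 against 1.87. Rsad2 encodes the antiviral protein viperin, and its start-site peak (chr12:27139108-27141828) held 210 and 195 in mTEC-IV, 188 and 170 in mTEC-I, 95.3 and 127 in mTEC-III, with 84.7 and 86.6 in mTEC-II. Lgals9 encodes galectin-9, a ligand of the T cell receptor Tim-3, and its start-site peak (chr11:78795111-78799126) held 254 and 278 in mTEC-IV, 319 and 317 in mTEC-I, 125 and 136 in mTEC-III, with 153 and 155 in mTEC-II. None of these 4 peaks passed limma's test between mTEC-IV and mTEC-I.

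**Figure D3:**
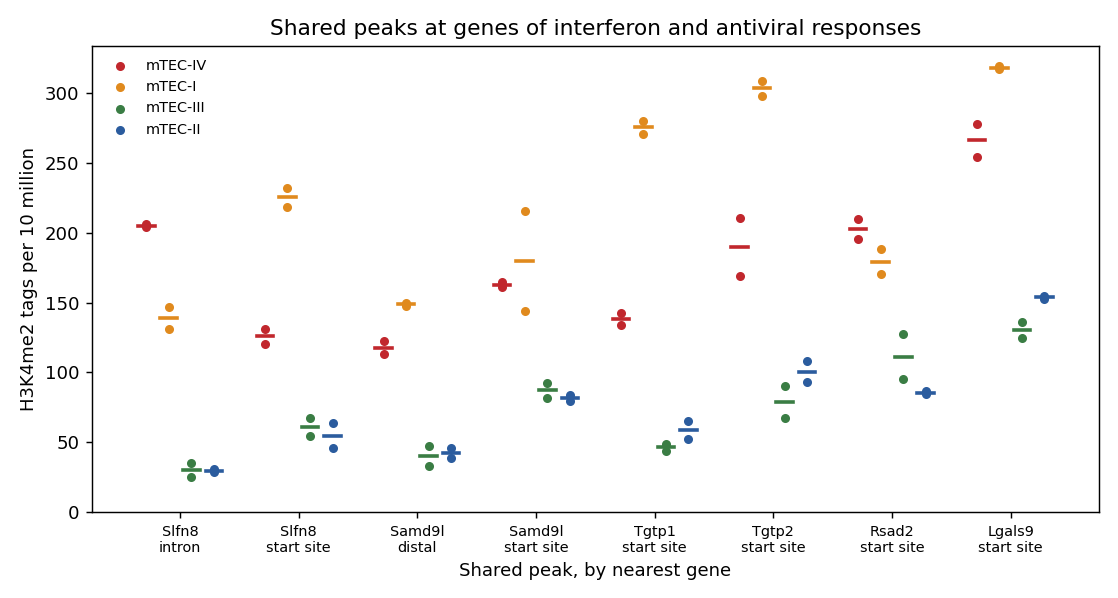
H3K4me2 (tags per 10000000) at 8 shared peaks nearest to Slfn8, Samd9l, Tgtp1, Tgtp2, Rsad2 and Lgals9. Points are the 2 libraries of each population and bars their means. At every peak shown the mTEC-IV and mTEC-I points lie above the mTEC-III and mTEC-II points, which the rule itself favours. At the Slfn8 start site, the distal Samd9l peak, Tgtp1, Tgtp2 and Lgals9 both mTEC-I points are the highest.

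The pattern did not extend to the interferon response as a whole. Of 55 peaks at 35 listed interferon-induced and Schlafen genes, 3 were shared peaks (5.45%), 2 at Slfn8 and 1 at Rsad2, against 0.675% of all peaks. At 15 of the 55 (27.3%) the 4 libraries of mTEC-IV and mTEC-I stood above all others, against 6.23% of all peaks. Tgtp1, Tgtp2, Samd9l and Lgals9 were not in the list and were named after their values were seen. At Ifit3 the start-site peak held 21.99 and 19.1 in mTEC-IV, 353 and 335 in mTEC-I, 55.5 and 61.2 in mTEC-III, with 57.1 and 60.7 in mTEC-II, a mark high in mTEC-I alone. At Cmpk2, the neighbour of Rsad2, the start-site peak held 189 and 200 in mTEC-IV, 184 and 220 in mTEC-I, 177 and 190 in mTEC-III, with 182 and 205 in mTEC-II. These ranges overlapped, unlike those at Rsad2, a shared peak where the rule itself favours separation. Slfn9, next to Slfn8, missed the rule with a ratio of 1.254.

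Cd80 encodes the B7-1 ligand that stimulates T cells through CD28, and it is a gene of the Aire stage. It had 2 shared peaks, in introns 2 and 4. These were the only ones among 48 peaks of the list of Aire-stage and MHC class II genes (4.17%, against 0.675% of all peaks). In that list 4 peaks (8.33%) had a ratio above 1, against 17.6% of all peaks. The median log2 ratio was -1.22, against -0.33 over all peaks. The peak in intron 2 (chr16:38475184-38478232) held 172 and 188 in mTEC-IV, 153 and 170 in mTEC-I, 68.8 and 60.1 in mTEC-III, with 60.7 and 57.8 in mTEC-II. The peak in intron 4 (chr16:38483356-38484994) held 103 and 114 in mTEC-IV, 91.3 and 132 in mTEC-I, 32.2 and 40.04 in mTEC-III, with 41.5 and 38.5 in mTEC-II. The only other peak of the gene lay over its start site and ran the other way, with 240 and 238 in mTEC-IV, 127 and 88.1 in mTEC-I, 329 and 352 in mTEC-III, with 383 and 393 in mTEC-II. Cd80 thus carried opposite patterns within 1 gene, with its intron peaks high where the start-site peak was lower. The intron peaks differed little between mTEC-IV and mTEC-I, by 0.15 ± 0.15 and -0.02 ± 0.22 (log2, SE), and neither passed limma's test.

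Of 98 peaks at listed genes of cytokine receptors and STAT signalling, 3 were shared (3.06%, against 0.675% of all peaks). They lay near Jak2, Socs2 and Il22ra1. Jak2 is a kinase that cytokine receptors use, and its peak in intron 2 (chr19:29339721-29341273) held 92.9 and 86.6 in mTEC-IV, 58.8 and 52.9 in mTEC-I, 25.2 and 20.6 in mTEC-III, with 31.5 and 29.6 in mTEC-II. Socs2 encodes an inhibitor of cytokine receptor signalling, and a peak 25.998 kb from its start site (chr10:94851191-94852647) held 97.3 and 89.6 in mTEC-IV, 44.1 and 55.8 in mTEC-I, 23.97 and 28.9 in mTEC-III, with 28.6 and 19.99 in mTEC-II. In both, mTEC-IV stood above mTEC-I and mTEC-I above the rest. By limma both were higher in mTEC-IV than in mTEC-I, Jak2 by 0.68 ± 0.24 (adjusted p = 0.038) and Socs2 by 0.90 ± 0.27 (adjusted p = 0.0181). Leaving out either mTEC-IV library ended both calls, with adjusted p of 0.117 and 0.173 for Jak2 and of 0.0747 and 0.113 for Socs2. The Jak2 call was also lost without mTEC-I replicate 2 or either mTEC-II library, with adjusted p from 0.0674 to 0.0694, and in 9 of 19 alternative settings in all. Il22ra1, a receptor chain for interleukin-22 on epithelia, had its shared peak 15.7 kb away with 42.3 and 47.8 in mTEC-IV, 51.8 and 79.3 in mTEC-I, 26.5 and 31.8 in mTEC-III, with 30.2 and 25.9 in mTEC-II. The start-site peaks of these 3 genes did not share the pattern, with ratios of 0.960 at Jak2, 0.905 at Socs2 and 0.198 at Il22ra1.

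Other lists held 1 shared peak or none, beside 0.675% of all peaks. The Wnt and Notch list gave 1 of 117 peaks (0.855%), at Tcf7l2, a transcription factor of the Wnt pathway. The list of TGF-beta, BMP and FGF signalling gave 1 of 109 (0.917%), near Dusp6, a phosphatase of the ERK kinases. The tuft cell list gave 1 of 95 (1.05%), near Sh2d7, a gene of the tuft cell programme, and the endothelium list 1 of 24 (4.17%), near Emcn. The Sh2d7 peak, 9.78 kb before the gene (chr9:54375107-54378923), held 115 and 160 in mTEC-IV, 49.5 and 64.6 in mTEC-I, 18.9 and 30.03 in mTEC-III, with 39.6 and 26.3 in mTEC-II. It was higher in mTEC-IV than in mTEC-I by 1.247 ± 0.30 (limma's adjusted p = 0.00573), a call lost without mTEC-IV replicate 2 (1.01, adjusted p = 0.0825). The start-site peak of Sh2d7 was high in mTEC-IV alone, with 734 and 819 there, 28.6 and 58.8 in mTEC-I, 43.5 and 35.3 in mTEC-III, with 71.7 and 65.5 in mTEC-II. No shared peak lay at the listed genes of basal and junctional, cornified, cortical or pan-epithelial cells, Hox clusters, fibroblasts, thymocytes, antigen-presenting blood cells, AP-1 and YAP/TEAD or the cytoskeleton. The endothelium genes summed to 2359 and 2308 in mTEC-IV, 1497 and 1413 in mTEC-I, 1351 and 1458 in mTEC-III, with 1628 and 1619 in mTEC-II, and the part of such cells at Emcn was not tested.

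The 15 peaks of largest ratio, from 2.56 to 4.58, lay mostly away from start sites. Of these 8 were intergenic, 6 were in introns and 1, near Olfml3, was at the end of a transcript. The intron peak of A230001M10Rik also covered a start site. After Slfn8, the largest ratio was 4.19, at an intergenic peak 196 kb from Tmem38b (chr4:54034241-54035443), which held 43.99 and 52.0 in mTEC-IV, 44.1 and 52.9 in mTEC-I, 8.20 and 14.7 in mTEC-III, with 11.03 and 9.63 in mTEC-II. The peak 13.5 kb from AI847159 had a ratio of 3.94 and held 58.8 and 54.4 in mTEC-IV, 38.7 and 52.9 in mTEC-I, 12.6 and 10.6 in mTEC-III, with 8.43 and 8.15 in mTEC-II. Neither differed between mTEC-IV and mTEC-I past limma's threshold, and in both mTEC-III and mTEC-II were far below. In intron 1 of Fam126a a peak held 82.5 and 80.7 in mTEC-IV, 46.4 and 82.2 in mTEC-I, 14.5 and 9.42 in mTEC-III, with 20.8 and 14.8 in mTEC-II. The peak 184 kb from Emcn, the gene of the endothelial surface protein endomucin, held 79.7 and 55.0 in mTEC-IV, 39.5 and 70.5 in mTEC-I, 13.2 and 18.8 in mTEC-III, with 20.1 and 14.1 in mTEC-II. In intron 2 of H2afy, which encodes the histone variant macroH2A1, a peak held 70.9 and 76.5 in mTEC-IV, 66.5 and 85.2 in mTEC-I, 27.1 and 19.4 in mTEC-III, with 13.3 and 19.2 in mTEC-II. The remaining peaks of the 15 were nearest to Bod1, Olfml3, Fam13a, A230001M10Rik, Ppp1r3b, Fam50b, Samd9l, Cd80 and Mir684-2, with ratios from 2.56 to 3.52. Of the 15, 6 rested on fewer than 10 tags in mTEC-I replicate 2, and those near Slfn8, Bod1 and Fam13a were higher in mTEC-IV than in mTEC-I by limma. The Bod1 call was lost without either mTEC-IV library (adjusted p = 0.073 and 0.118) and with cyclic loess scaling (0.40, against 1.19, adjusted p = 0.393).

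The 8 peaks with the largest smaller mean were wide, at 3702 to 6373 bases against a median width of 1676 for the shared peaks. Per kilobase of peak, the smaller mean of these 8 was 43.5 to 87.1 tags per 10000000, against a median of 45.2 over the 199. Slit2 encodes a ligand of Robo receptors, and the peak over its start site held 396 and 401 in mTEC-IV, 272 and 282 in mTEC-I, 125 and 154 in mTEC-III, with 168 and 166 in mTEC-II. Ngfr encodes the p75 neurotrophin receptor, and its start-site peak held 267 and 286 in mTEC-IV, 320 and 253 in mTEC-I, 108.5 and 113 in mTEC-III, with 185 and 178 in mTEC-II. Irs1 encodes an adaptor of the insulin receptor, and its peak held 361 and 336 in mTEC-IV, 426 and 314 in mTEC-I, 182 and 181 in mTEC-III, with 174 and 178 in mTEC-II. These 3 peaks kept a sizeable mark in the low populations, and their ratios were 1.52 to 1.92. An intergenic peak 122 kb from Fat3, a large atypical cadherin, held 357 and 395 in mTEC-IV, 431 and 461 in mTEC-I, 126 and 155 in mTEC-III, with 212 and 221 in mTEC-II. Sorbs3, the gene of the adhesion protein vinexin, held 374 and 395 in mTEC-IV, 290 and 294 in mTEC-I, 122 and 125 in mTEC-III, with 140.5 and 143 in mTEC-II over its start site. Sorbs3 and Slit2 were higher in mTEC-IV than in mTEC-I by 0.40 and 0.52 (limma's adjusted p = 0.00831 and 0.00333), and the Sorbs3 call was lost without mTEC-IV replicate 2 (adjusted p = 0.0872). Lgals9 was also among the 8, and the others were nearest to Pde6b and Gm20139.

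Between mTEC-IV and mTEC-I, most shared peaks did not pass the test. By limma 40.6% of all peaks tested differed between the 2 populations. Among the shared peaks 26 of the 199 (13.1%) were higher in mTEC-IV, against 25.5% of all peaks, and 7 (3.52%) were lower, against 15.2%. The rule asks the smaller of these 2 means to be high and so disfavours peaks where 1 of them is low, and nothing is read from these lower shares. The median log2 difference was 0.08 over the shared peaks (-0.03 with cyclic loess scaling) and 0.03 over all peaks, and the mTEC-IV mean over the mTEC-I mean ranged from 0.265 to 5.31 with a median of 1.04. Without mTEC-IV replicate 2, 15 peaks were higher (7.54%, against 16.1% of all peaks). Without mTEC-IV replicate 1, 4 were lower (2.01%, against 10.2%), and without mTEC-I replicate 1, 14 were lower (7.04%, against 20.9%). With cyclic loess scaling 22 of the shared peaks were higher and 7 lower, and of all peaks 17.6% were higher and 18.2% lower.

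The differences that passed had large sizes at a few peaks. An intergenic peak 10.6 kb from Gm4861 (chr3:137223560-137228782) held 258 and 280 in mTEC-IV, 60.4 and 41.1 in mTEC-I, 24.6 and 27.1 in mTEC-III, with 30.8 and 35.2 in mTEC-II. It was higher in mTEC-IV than in mTEC-I by 2.41 ± 0.23 (log2, SE; limma's adjusted p = 1.1e-05). Ackr4 encodes a scavenger receptor of the chemokines CCL19, CCL21 and CCL25, and a peak 25.956 kb from its start site (chr9:103999814-104006220) held 429 and 442 in mTEC-IV, 98.3 and 94.0 in mTEC-I, 42.9 and 25.9 in mTEC-III, with 46.7 and 54.1 in mTEC-II. It was higher by 2.17 ± 0.21 (limma's adjusted p = 1.5e-05). In these 2 peaks mTEC-IV alone was far above the rest and mTEC-I stood only moderately above mTEC-III and mTEC-II. The peaks near Hipk1, a nuclear kinase, and Foxp1, a forkhead transcription factor, were higher in mTEC-IV by 1.44 ± 0.20 and 1.40 ± 0.19, each with limma's adjusted p of 0.00015. The intergenic peaks nearest to Rad23b and Mir21b were higher by 1.34 ± 0.22 and 1.82 ± 0.31.

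In the other direction, an intergenic peak 48.6 kb from 3110039I08Rik (chr9:41134215-41137791) held 71.5 and 85.4 in mTEC-IV, 281 and 311 in mTEC-I, 27.8 and 27.1 in mTEC-III, with 40.2 and 41.1 in mTEC-II. It was lower in mTEC-IV than in mTEC-I by -1.91 ± 0.18 (limma's adjusted p = 1.1e-05). The peak near Tubb2b, a beta-tubulin of neurons, held 72.6 and 84.8 in mTEC-IV, 176 and 173 in mTEC-I, 46.0 and 43.0 in mTEC-III, with 52.2 and 48.9 in mTEC-II, and was lower by -1.15 ± 0.18 (limma's adjusted p = 0.00031). Of the 7 peaks lower in mTEC-IV, 3 were the start-site peaks of Slfn8, Tgtp1 and Tgtp2 given above. The remaining 2 were near Ntm, a neural adhesion protein, and Tcf4, a basic helix-loop-helix factor. The Ntm call was lost without either mTEC-IV library or mTEC-I replicate 2, with adjusted p from 0.0572 to 0.159. The Tcf4 call (-0.54 ± 0.20, limma's adjusted p = 0.0451) was lost in 13 of 19 alternative settings.

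**Figure D4:**
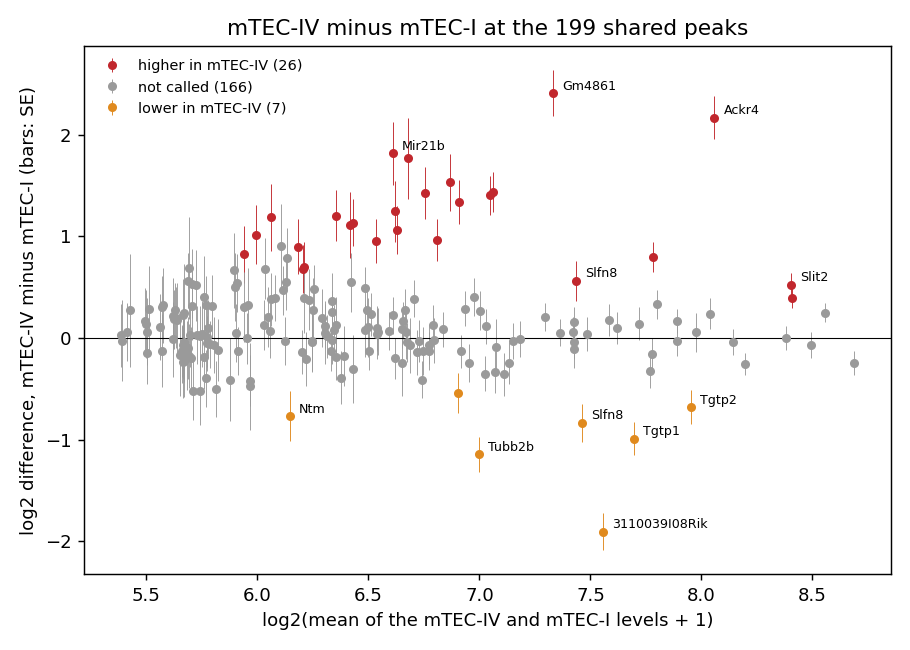
Log2 difference between mTEC-IV and mTEC-I (y axis, bars give the SE) against the mean level of both (x axis, log2) at the 199 shared peaks. The 26 peaks higher in mTEC-IV are red, the 7 lower are orange and the rest are grey, with Gm4861 at 2.41 and 3110039I08Rik at -1.91 as the extremes.

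Between mTEC-III and mTEC-II, the populations where the shared peaks are low, limma called 17.6% of all peaks. Among the shared peaks it found 2 higher in mTEC-III (1.01%, against 7.69% of all peaks) and 20 lower (10.1%, against 9.88%). The share of lower calls was near that of all peaks. The rule limits the larger of these 2 means and so disfavours peaks where 1 of them is high. Nothing is read from these shares. The median log2 difference was -0.32 over the shared peaks (-0.18 with cyclic loess scaling) and 0.01 over all, and the mTEC-II mean was the higher at 151 of the 199 (75.9%), against 48.4% of all peaks. The number of lower calls was 55 and 54 without mTEC-I replicate 1 or 2 (27.6% and 27.1%, against 20.7% of all peaks in both), and 8 without mTEC-III replicate 1 (4.02%, against 2.19%). It was 4 and 5 without mTEC-II replicate 1 or 2 (2.01% and 2.51%, against 1.2502% and 1.20%). The higher calls numbered 4 without either mTEC-I library and 1 without mTEC-IV replicate 2 or any 1 of the mTEC-III and mTEC-II libraries. Plet1 encodes a surface protein known from thymic epithelial progenitors, and its start-site peak held 224 and 214 in mTEC-IV, 175 and 226 in mTEC-I, 129 and 109 in mTEC-III, with 52.6 and 61.5 in mTEC-II. It was higher in mTEC-III than in mTEC-II by 1.05 ± 0.16 (limma's adjusted p = 0.00184), so that mTEC-II alone was lowest. Ghr, the growth hormone receptor, was higher by 0.99 ± 0.28 (limma's adjusted p = 0.0311) at a peak 124 kb away. That call was lost without mTEC-IV replicate 2 or any 1 of the mTEC-III and mTEC-II libraries, with adjusted p from 0.0514 to 0.213.

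Where mTEC-III was the lowest, the start-site peak of Arsi, an arylsulfatase, held 249 and 263 in mTEC-IV, 228 and 264 in mTEC-I, 37.2 and 60.6 in mTEC-III, with 128 and 125 in mTEC-II. It was lower in mTEC-III than in mTEC-II by -1.39 ± 0.19 (limma's adjusted p = 0.00099). Slc8a3, a sodium and calcium exchanger, held 94.6 and 114 in mTEC-IV, 103 and 109 in mTEC-I, 21.4 and 28.9 in mTEC-III, with 65.9 and 72.6 in mTEC-II over its start site. It was lower by -1.44 ± 0.21 (limma's adjusted p = 0.00126). An intergenic peak 197 kb from the cadherin gene Cdh26 was lower by -1.001 ± 0.17 (limma's adjusted p = 0.00276). At these 3 peaks the mark stood in 3 steps, with mTEC-IV and mTEC-I together, mTEC-II below them and mTEC-III lowest. The rule itself asks for the step from mTEC-IV and mTEC-I down to mTEC-II, and only the step from mTEC-II to mTEC-III was tested.

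The shared peaks lay farther from genes than the other peaks of the table. Intergenic DNA held 79 of the 199 (39.7%), against 41.6% of the 375 peaks shared by mTEC-III and mTEC-II and 26.5% of all peaks. Introns held 40.2%, against 48.5% and 45.6%. The peak covered the start site at 49 (24.6%), against 19.2% of the peaks shared by mTEC-III and mTEC-II and 44.8% of all. The median distance from the start site was 16.9 kb, against 15.9 kb and 4.62 kb, and 39 peaks (19.6%) lay over 100 kb away, against 11.2% and 8.37%. Peaks at the level of the lower-marked shared peaks, with a smaller mean from 40 to 68.2 (3539 peaks), had a start site in 24.9%, a median distance of 13.6 kb, 38.6% in intergenic DNA and 10.5% beyond 100 kb. All 17971 peaks with both means at 40 or more, a range that includes far higher peaks, had a start site in 68.5%, a median distance of 0.702 kb and 17.6% in intergenic DNA. How far the shared peaks stood from other peaks in position thus depended on the levels they were set against. Chosen without mTEC-I replicate 2, the share of intergenic peaks was 38.9%. No shared peak lay on the X chromosome, which held 1.87% of all peaks, and none of the 375 shared by mTEC-III and mTEC-II did.

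**Figure D5:**
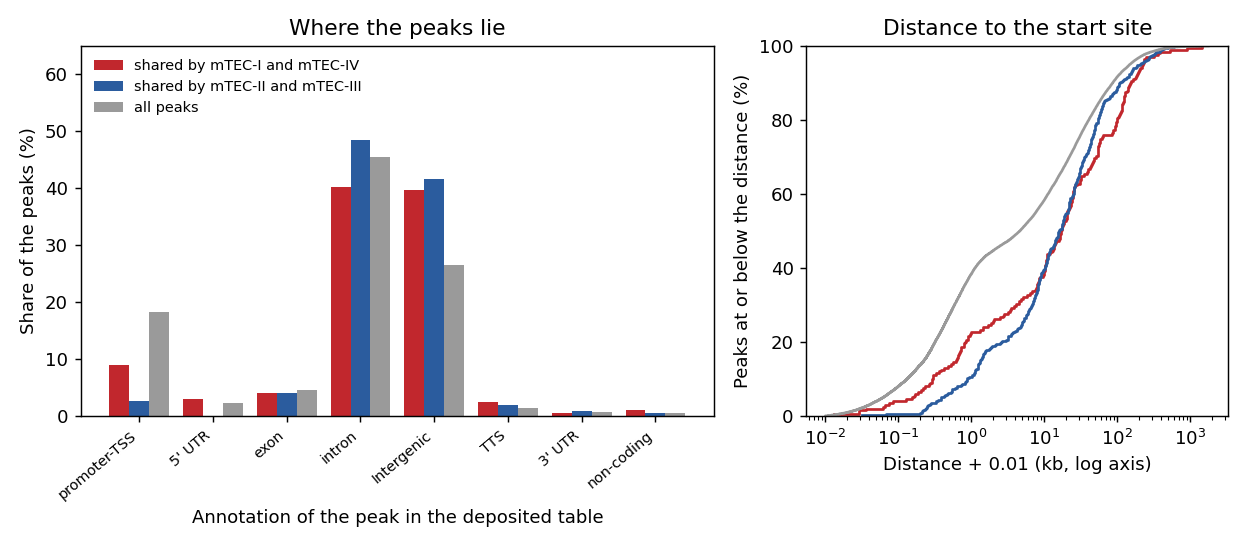
Left, share of the peaks in each annotation class for the 199 peaks shared by mTEC-I and mTEC-IV (red), the 375 shared by mTEC-II and mTEC-III (blue) and all 29470 peaks (grey). Right, share of peaks at or below each distance from the nearest start site (kb, log axis): both shared sets lie farther out than all peaks, with medians of 16.9, 15.9 and 4.62 kb.

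Most nearest genes had 1 shared peak. The 199 had 191 nearest genes, 8 of which had 2 shared peaks (Cd80, E2f6, Grb14, Samd9l, Serbp1, Slfn8, Tcf4 and Trak1) and none more. The same 191 genes had 464 peaks that were not shared ones, of which 114 (24.6%) had both mTEC-IV and mTEC-I above the other populations at all, against 17.0% of all peaks that were not shared ones. Within 10 kb of a shared peak this was so at 23 of 73 such peaks (31.5%), at 10 to 50 kb at 21.1%, and at 100 to 500 kb at 17.5%. Of 145 genes nearest to a shared peak that covers no start site, 90 had a peak over the start site. Of those 94 start-site peaks, 31 (33.0%) had a ratio above 1, against 20.2% of all start-site peaks, and their median ratio was 0.914. At 3 of these genes, Samd9l, Slfn8 and Trak1, the start-site peak was itself a shared peak. Without these 3, 28 of 91 (30.8%) had a ratio above 1, against 19.9% of all start-site peaks that were not shared ones. Nearest genes were given by distance alone, and no contact between peak and gene was measured.

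In the authors' deposited lists of peaks, 1 per population with both replicates combined, 198 of the 199 were overlapped by a peak of mTEC-IV (99.5%, against 75.5% of all peaks) and 29 by one of mTEC-I (14.6%, against 23.4%). A peak of mTEC-III overlapped 44 (22.1%, against 64.5%) and one of mTEC-II 83 (41.7%, against 80.2%). The mTEC-IV list alone held 109 of the 199, against 3970 of 29470. The mTEC-I list in the authors' deposited table is short, with 7034 peaks against 22757 for mTEC-IV, and its lowest normalized tag count is 142.7. The median fold of the overlapping peaks over the control was 14.4 in the mTEC-IV list, 19.1 in mTEC-I, 14.0 in mTEC-III and 13.3 in mTEC-II, as the authors' deposited table gives it.

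At the limits of the rule, the 3 peaks just above the level, near Rftn2, Bod1 and Shc2, had smaller means of 40.1, 40.1 and 40.3. The 3 just below, near Susd3, 5031425E22Rik and Myog, had 39.3, 39.3 and 39.4. The 3 peaks just inside the ratio, near Fignl2, Trak1 and Gabrb2, had ratios of 1.501, 1.502 and 1.502, and the 3 just outside, near Bhlha9, Stxbp5l and Foxp1, had 1.495, 1.497 and 1.499. Values on either side of both limits were alike, so the limits divide a continuous range.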

How the data were processed

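H3K4me2 was measured by iChIP, a high-throughput chromatin immunoprecipitation, in 8 libraries of sorted mTEC, and 8 whole-cell extracts are not analysed here. The submitters' processing notes name bcl2fastq 2.15.0.4, Picard 1.108 and build mm9. An aligner is not given in the sources used. Per the file headers, the merged table came from HOMER's annotatePeaks and gives the signal of each library in 29472 peaks per 10000000 tags of that library. In the deposited lists of peaks, the authors give each peak's fold over a control and its p-value, which served only to describe the lists. Totals in the header turn the deposited signal back into tags, and 100% of values came out whole in steps of 0.5 tags (tolerance 0.1). The total was 9093698 and 8369277 tags in mTEC-IV, 6461587 and 1702103.5 in mTEC-I, 7926038.5 and 8492028 in mTEC-III, with 15412132.5 and 13504742.5 in mTEC-II.

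The 2 mitochondrial peaks were left out and population means were taken over the 2 replicates. Peaks that reached 10 tags per 10000000 in 2 or more libraries (29469, all 199 shared peaks among them) were tested with limma 3.58.1 (R 4.3.3) on log2(value + 1) with a trended variance. The fit held all 8 libraries, with 4 residual and 7.75 prior degrees of freedom, and Benjamini-Hochberg adjusted p under 0.05 over all tested peaks were called. Fold changes on the log2(value + 1) scale understate the change of low peaks. edgeR 4.0.16 and DESeq2 1.42.0 on the recovered tags, rounded to whole numbers, were alternatives. A peak covers a start site when its centre lies within 0.5 of its width of that site, and it belongs to the nearest gene of the deposited annotation. All 191 nearest genes matched RefSeq.

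The shared peaks, gene lists and motifs were chosen with earlier results of these data known. Named peaks were the 15 of largest ratio, the 8 of largest smaller mean, 6 of smallest p in each direction between mTEC-IV and mTEC-I, 3 in each direction between mTEC-III and mTEC-II (where only 2 were higher), those of genes with 3 or more shared peaks (none), those of listed genes, and 3 on each side of each limit. Tgtp1, Tgtp2, Samd9l and Lgals9 were also grouped after their values were seen. A motif search in the peaks needs a genome of build mm9 and was not run, so the RefSeq promoters of GRCm38.p6 were searched instead. The labels mention no molecular identifiers, so depth speaks only to counting error.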

Additional observations from a re-analysis of the deposited data

How the results depend on the processing

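The 199 shared peaks depend on the limits. A level of 60 gave 111 and a ratio of 2 gave 39, all among the 199, a looser ratio gave 680, and 106 lay within 20 kb of a start site. Other scalings gave 141 to 162. Without 1 library the number was 184 to 261. Chosen on replicate 1, a ratio of 2 raised the share that kept the order in the other replicate to 82.1%. Chosen on replicate 2, it rose to 89.7%, and to 84.2% at a level of 60.

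Between mTEC-IV and mTEC-I, the lower calls numbered 11 with equal totals in peaks and 11 with edgeR. Array weights gave 19 higher and 5 lower calls (9.55% and 2.51%, against 22.5% and 10.7% of all peaks). DESeq2 gave 20 higher and 5 lower (10.1% and 2.51%, against 19.4% and 9.39%). Without 1 library the higher calls ran from 15 to 36 and the lower from 4 to 14. Between mTEC-III and mTEC-II, the lower calls numbered 42 with edgeR, 37 with only the 4 libraries compared and 62 with array weights, and from 4 to 55 without 1 library. Over all peaks, edgeR called 7541 higher and 4719 lower between mTEC-IV and mTEC-I, and 5747 higher and 6532 lower between mTEC-III and mTEC-II, where limma called 2266 and 2913. The higher calls of shared peaks there numbered 1 with DESeq2, 4 with array weights and from 1 to 4 without 1 library. The cause was not tested. Of 28 calls at named peaks, 16 held in all 19 alternatives, and no direction was reversed in them. Leaving out a library leaves its population with 1 sample, which is then assumed to vary like the others.

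The replicate block, with the replicate number as a term, gave 25 higher and 6 lower between mTEC-IV and mTEC-I, and 2 higher and 23 lower between mTEC-III and mTEC-II. The deviations of libraries with the same number correlated at -0.01 to 0.02, so no effect shared by number was seen. Deviations that are partly counting error cannot tell whether the samples were paired.

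Depth limits the values of mTEC-I most, since 60 of the peaks rest on fewer than 10 tags in its replicate 2. The alternatives chosen after seeing the data, without that library or without the interferon-linked genes, are given beside their results.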
